A study of Saccharomyces cerevisiae with 12 samples.

Results

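The 10 nuclear genes that encode core enzymes of the citric acid cycle in budding yeast were examined by 5PSeq, a method that sequences mRNA fragments with a phosphate at the 5′ end. Such fragments arise when mRNA is decapped or cut and then degraded. The genes were *CIT1*, *ACO1*, *IDH1*, *IDH2*, *KGD1*, *KGD2*, *LSC1*, *LSC2*, *FUM1* and *MDH1*, chosen by name from the gene symbols of the count table, and all 10 were found among its 6302 genes. Each of the 10 also passed the filter on low counts, which left 3378 genes for testing.

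The libraries came from 4 strains of BY4741 MATa background, with 3 replicates each, grown in rich glucose medium (YPD) at 30°C and 200 rpm. The *ncs2*∆*elp6*∆*hel2*∆ strain carried ncs2Δ::HIS3MX, elp6Δ::URA3 and hel2Δ::LEU2, the *ncs2*∆*elp6*∆ strain carried the deletions of *NCS2* and *ELP6* alone, and the *hel2*∆ strain carried hel2Δ::LEU2 alone. The wild type carried none of them and is listed as his3Δ1 leu2Δ0 ura3Δ0 met15Δ0. *NCS2* and *ELP6* are needed for the thiol and carboxymethyl groups on U34, the wobble base of certain tRNAs, and Hel2 is the ubiquitin ligase that marks collided ribosomes for ribosome-associated quality control (RQC). The comparisons asked how 5PSeq reads of the cycle genes differed when U34 modification, Hel2 or both were lost. The strains also differ in their selectable markers, and met15Δ0 is listed for the wild type only, so effects of the markers and of the deletions cannot be told apart.

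Library totals ran from 104202 to 415323 reads, with a median of 215412, so a cycle gene had between 2 and 118 reads in a library. *NCS2* had 2 reads in the *ncs2*∆*elp6*∆*hel2*∆ libraries together and 0 in *ncs2*∆*elp6*∆, while *hel2*∆ had 15 and wild type had 18. *ELP6* had 10 and 4 reads in the same mutants, while *hel2*∆ and wild type had 20 reads each. *HEL2* had 5 reads in *ncs2*∆*elp6*∆*hel2*∆ against 89 in *ncs2*∆*elp6*∆, and 8 reads in *hel2*∆ against 48 in wild type. Counts of differing genes depended on single libraries. Between *ncs2*∆*elp6*∆*hel2*∆ and *ncs2*∆*elp6*∆, 192 genes differed with all libraries, 389 without *ncs2*∆*elp6*∆*hel2*∆ replicate 2 (the deepest library), 35 without *ncs2*∆*elp6*∆*hel2*∆ replicate 3, and 109 and 76 without *ncs2*∆*elp6*∆ replicates 1 and 2. No RNA-seq counts enter here, and a change in 5PSeq reads can reflect more mRNA or more decay per mRNA, which cannot be told apart.

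The citric acid cycle runs in the mitochondrial matrix and oxidizes acetyl groups to carbon dioxide, passing electrons to the respiratory chain and supplying carbon skeletons for amino acids such as glutamate and aspartate. Its enzymes are encoded in the nucleus, translated on cytosolic ribosomes and imported. In yeast, glucose represses many of these genes, and the Rtg and Hap transcription factors govern their expression. Citrate synthase (Cit1) joins acetyl-CoA to oxaloacetate, aconitase (Aco1) isomerizes citrate, and the NAD-dependent isocitrate dehydrogenase is built from the subunits Idh1 and Idh2. The 2-oxoglutarate dehydrogenase complex contains Kgd1 and Kgd2, succinyl-CoA ligase is a dimer of Lsc1 and Lsc2, fumarase (Fum1) hydrates fumarate, and malate dehydrogenase (Mdh1) regenerates oxaloacetate.

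Only a few of the 10 genes differed between strains, and *MDH1* at the end of the cycle differed most clearly. Its 5PSeq reads were 2.42-fold higher in *ncs2*∆*elp6*∆ than in wild type. *IDH2* was also higher in *ncs2*∆*elp6*∆, and *LSC2* was higher in *ncs2*∆*elp6*∆*hel2*∆, each relative to wild type. The calls of *IDH2* and *LSC2* depended on the libraries included. Counts were scaled by TMM and given as CPM (reads scaled to a common library size), and differences were tested by edgeR's quasi-likelihood test on all 12 libraries with Benjamini-Hochberg adjustment over all genes tested, at an adjusted p of 0.05. Whether the replicates were separate cultures is not given in the sources used here, so p-values measure the spread between these samples.

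The cycle genes together took a small part of each library. Their reads made up 0.149% ± 0.00845 of the library in *ncs2*∆*elp6*∆*hel2*∆, 0.138% ± 0.00294 in *ncs2*∆*elp6*∆, 0.108% ± 0.0110 in *hel2*∆ and 0.102% ± 0.0195 in wild type (SD, n = 3 each). In these raw shares, all *ncs2*∆*elp6*∆ libraries (0.136% to 0.142%) lay above all wild-type libraries (0.0803% to 0.117%), as did all *ncs2*∆*elp6*∆*hel2*∆ libraries (0.142% to 0.158%). After TMM scaling the strains overlapped. The summed level was 1450.3 ± 190 CPM in *ncs2*∆*elp6*∆*hel2*∆, 1234 ± 77.2 CPM in *ncs2*∆*elp6*∆, 1176 ± 65.6 CPM in *hel2*∆ and 1094 ± 217 CPM in wild type. The second wild-type library, at 1315 CPM, lay above 2 of the 3 *ncs2*∆*elp6*∆ libraries. Scaling by library totals alone shifted the median of all genes tested as well, to 0.29 in *ncs2*∆*elp6*∆ over wild type on the log2 scale, against 0.04 with TMM, and the median of the cycle genes lay 0.19 above that of all genes under either scaling.

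**Figure D1:**
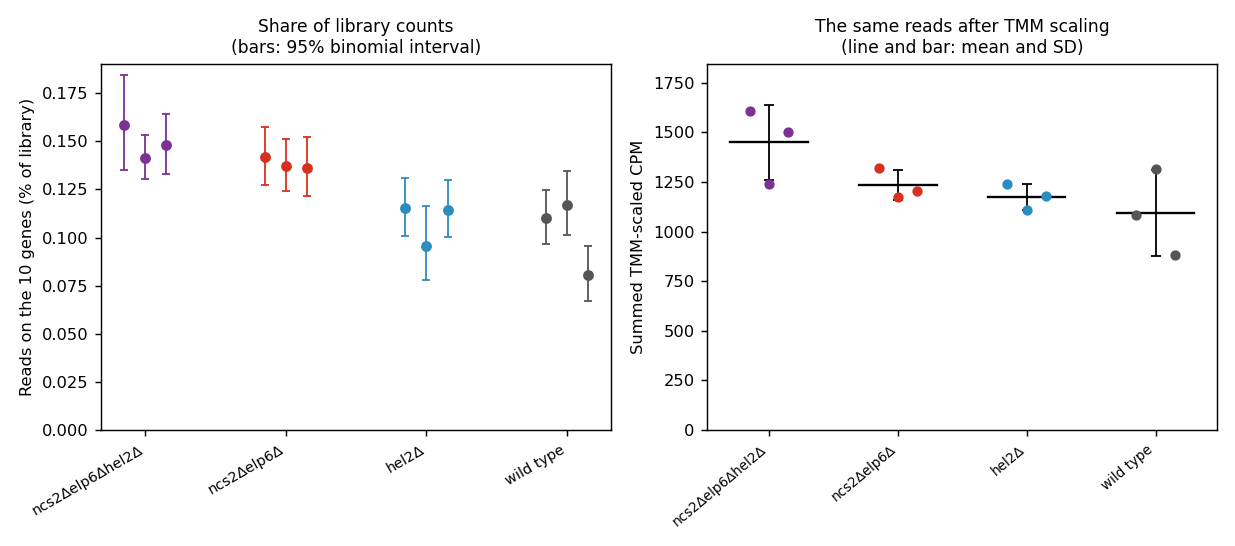
Reads on the 10 citric acid cycle genes in each library, as a percentage of library counts with exact 95% binomial intervals, which cover counting error only (left), and as summed TMM-scaled CPM with mean and SD (right), for ncs2∆elp6∆hel2∆, ncs2∆elp6∆, hel2∆ and wild type. The shares of both ncs2∆elp6∆ strains lie above all wild-type shares, at 0.136% to 0.158% against 0.0803% to 0.117%, while the scaled sums overlap.

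Levels were compared between genes per kilobase of coding length. In *ncs2*∆*elp6*∆*hel2*∆, *FUM1* led with 157 ± 26.3 CPM per kb before *ACO1* with 143 ± 34.6 CPM per kb, and *KGD2* was last at 31.6 ± 15.5 CPM per kb (SD, n = 3). Of the 9 gaps between neighbours in that order, 2 exceeded the larger of the neighbours' SDs, between *KGD1* and *LSC1* and between *CIT1* and *KGD2*. In *ncs2*∆*elp6*∆, *MDH1* was first at 185 ± 31.0 CPM per kb, followed by *FUM1* at 149 ± 37.0 CPM per kb, and 4 of the 9 gaps exceeded the SD, though not the one between these genes. In *hel2*∆ *KGD1* led with 111 ± 19.2 CPM per kb. In wild type, *ACO1* was highest at 109 ± 22.3 CPM per kb and *LSC1* lowest at 38.0 ± 10.3 CPM per kb. No neighbouring genes in the order of *hel2*∆ or of wild type differed by more than the larger SD. *MDH1* stood 3rd in *ncs2*∆*elp6*∆*hel2*∆, 1st in *ncs2*∆*elp6*∆ and 4th in both *hel2*∆ and wild type.

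**Figure D2:**
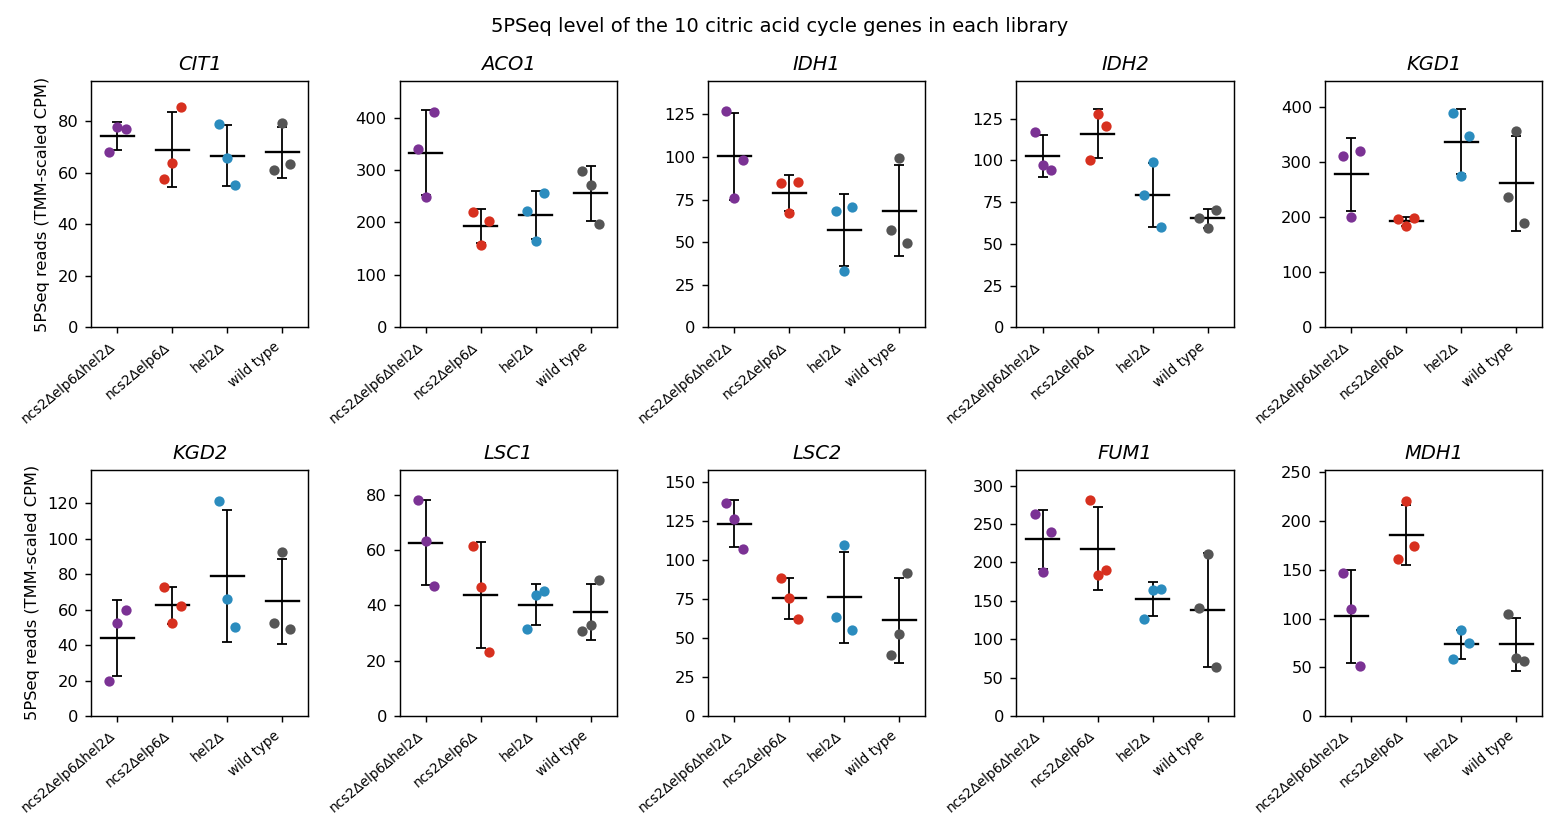
TMM-scaled CPM of each citric acid cycle gene in each library (points), with mean (line) and SD (bar) for 3 libraries per strain, strains from left to right ncs2∆elp6∆hel2∆, ncs2∆elp6∆, hel2∆ and wild type. The 3 ncs2∆elp6∆ libraries of MDH1 (161 to 221 CPM) lie above those of every other strain, and CIT1 stays between 55.3 and 85.4 CPM throughout.

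Loss of U34 modification with Hel2 present was examined in *ncs2*∆*elp6*∆ against wild type. Of the 10 cycle genes, 2 rose (*MDH1* and *IDH2*) and 0 fell. Among all genes tested, 30% were called in this comparison, 13.4% as higher and 16.7% as lower, so the 2 of 10 lie below the share called in either direction and above the share called higher. The median log2 fold change of the 10 genes was 0.24, beside 0.04 for all genes tested. The sign was positive for 7 of the 10 genes, beside 52% of all genes. At an unadjusted p under 0.05 there were 3 cycle genes (*MDH1*, *IDH2* and *FUM1*), beside 40.7% of all genes. With library totals alone as the scaling, 62.7% of all calls were higher, against 44.5% with TMM. The same 2 cycle genes were then joined by *FUM1*, so 3 of the 10 were called higher, beside 757 of the 3378 genes tested.

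*MDH1* (YKL085W, chromosome XI, 279123 to 280127 in S288C R64) makes the malate dehydrogenase of the mitochondrial matrix. It had 161, 221 and 175 CPM in the *ncs2*∆*elp6*∆ libraries, against 105, 59.5 and 56.4 CPM in wild type. These values rested on 42, 76 and 45 reads in *ncs2*∆*elp6*∆ and on 24, 9 and 8 reads in wild type. Every *ncs2*∆*elp6*∆ library was higher than every wild-type library. Libraries of 2 strains did not overlap in this way, with higher values in *ncs2*∆*elp6*∆, for 2 of the 10 cycle genes and 21.3% of all genes tested. Lower values without overlap were found for 0 of the 10 and 22.3% of all genes. The log2 fold change was 1.27 (standard error 0.32, adjusted p = 0.00335 from edgeR), and *MDH1* passed the threshold whichever of the 6 libraries was left out, with log2 fold changes of 1.12 to 1.69.

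The share of *MDH1* within the cycle does not depend on how libraries are scaled. *MDH1* took 12.2% to 18.8% of the reads on the 10 genes in *ncs2*∆*elp6*∆, against 4.52% to 9.68% in wild type. Set against *KGD1*, the longest of the genes, there were 0.971 ± 0.206 *MDH1* reads per *KGD1* read in *ncs2*∆*elp6*∆ and 0.302 ± 0.139 in wild type (SD, n = 3 each). Neither ratio overlapped between these strains. The second ratio also moves with *KGD1*, whose own log2 fold change was −0.44 (adjusted p = 0.191 from edgeR). By the same measure *ACO1* took 15.6% ± 1.93 of the cycle reads in *ncs2*∆*elp6*∆ and 23.5% ± 3.53 in wild type, and *KGD1* took 15.6% ± 0.814 in *ncs2*∆*elp6*∆ and 23.5% ± 3.15 in wild type. Neither the *ACO1* nor the *KGD1* shares overlapped between the strains, both being lower in *ncs2*∆*elp6*∆. The shares of the 10 genes are parts of the same whole, so they are not independent of one another. How much of the lower *ACO1* and *KGD1* shares goes with the higher *MDH1* share was not tested. In CPM, both *ACO1* and *KGD1* overlapped between the strains.

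**Figure D3:**
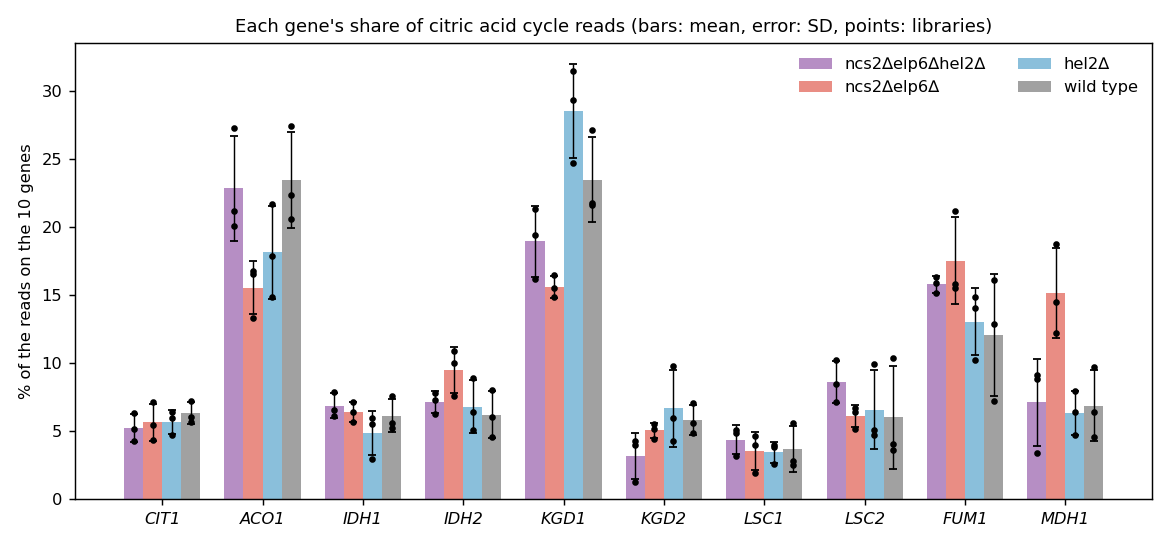
Share of each gene in the reads on the 10 citric acid cycle genes, in percent, as mean (bar), SD (error bar) and single libraries (points) for ncs2∆elp6∆hel2∆, ncs2∆elp6∆, hel2∆ and wild type. MDH1 took 7.11% in ncs2∆elp6∆hel2∆, 15.2% in ncs2∆elp6∆, 6.33% in hel2∆ and 6.87% in wild type.

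*IDH2* (YOR136W, chromosome XV, 580250 to 581359) encodes the catalytic subunit of NAD-dependent isocitrate dehydrogenase. It is also the member of the cycle that the study lists as an RQC target, a list drawn up from ribosome footprints and not from 5PSeq. *IDH2* had 99.9, 128 and 120.4 CPM in *ncs2*∆*elp6*∆, against 65.7, 59.5 and 70.4 CPM in wild type, with no overlap. The log2 fold change was 0.83 (standard error 0.28, adjusted p = 0.0277 from edgeR). The call was kept in 1 of 6 fits that left out 1 library, the one without *ncs2*∆*elp6*∆ replicate 1. The adjusted p was 0.0679, 0.0878 and 0.0552 without wild-type replicates 1, 2 and 3, and 0.0719 and 0.0564 without *ncs2*∆*elp6*∆ replicates 2 and 3. DESeq2 did not call the gene either (log2 fold change 0.86, adjusted p = 0.141). In *ncs2*∆*elp6*∆*hel2*∆ over *ncs2*∆*elp6*∆ the log2 fold change of *IDH2* was −0.22 (adjusted p = 0.707 from edgeR), with overlapping libraries. A link of the *IDH2* reads to RQC was not tested.

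Its partner *IDH1* (YNL037C, chromosome XIV, 557920 to 559002) encodes the regulatory subunit. *IDH1* had 84.6, 66.8 and 85.4 CPM in *ncs2*∆*elp6*∆, against 56.9, 99.1 and 49.3 CPM in wild type, and the second wild-type library exceeded all 3 mutant libraries. Its log2 fold change of 0.21 had a 95% interval of −0.48 to 0.90 (adjusted p = 0.677 from edgeR), which includes the value found for *IDH2*. The number of *IDH2* reads per *IDH1* read was 1.18 to 1.91 in *ncs2*∆*elp6*∆ and 0.60 to 1.43 in wild type. These ranges overlapped, so an unequal change of the 2 subunits was not detectable at this depth.

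*FUM1* (YPL262W, chromosome XVI, 47336 to 48802), whose fumarase is made as a mitochondrial and a cytosolic form from 1 gene, had 281, 183 and 190.3 CPM in *ncs2*∆*elp6*∆ and 140.2, 211 and 63.4 CPM in wild type. The wild-type libraries spread over more than the difference between the strains. The log2 fold change was 0.64 (standard error 0.29, adjusted p = 0.102 from edgeR). Without wild-type replicate 2 it was 1.00 with an adjusted p of 0.0237, and without wild-type replicate 3 it was 0.33 with an adjusted p of 0.439. The call of *FUM1* was thus decided by single wild-type libraries.

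*ACO1*, *KGD1*, *CIT1*, *KGD2* and both *LSC* genes did not pass the test in *ncs2*∆*elp6*∆. *ACO1* (YLR304C, chromosome XII, 735212 to 737548), whose product also protects mitochondrial DNA, had 219, 157 and 202 CPM, against 298, 271 and 197 CPM in wild type. This was a log2 fold change of −0.43 (95% interval −0.94 to 0.07, adjusted p = 0.191 from edgeR). *KGD1* (YIL125W, chromosome IX, 122689 to 125733), which encodes the dehydrogenase subunit of the 2-oxoglutarate dehydrogenase complex, had 196, 183 and 198 CPM in *ncs2*∆*elp6*∆, against 237, 357 and 190.2 CPM in wild type. For this gene the log2 fold change was −0.44 (95% interval −0.95 to 0.07, adjusted p = 0.191 from edgeR). Both genes had negative values, and both overlapped between the strains.

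*CIT1* (YNR001C, chromosome XIV, 629622 to 631061) had the smallest change of the cycle genes in this comparison, with a log2 fold change of 0.03 (95% interval −0.61 to 0.67). Its levels were 57.7, 63.9 and 85.4 CPM in *ncs2*∆*elp6*∆ and 61.3, 79.3 and 63.4 CPM in wild type. The interval still allows a rise or a fall of more than 1.5-fold. *KGD2* (YDR148C, chromosome IV, 753675 to 755066), encoding the succinyltransferase subunit of the complex with Kgd1, had 73.0, 52.3 and 62.1 CPM in *ncs2*∆*elp6*∆ and 52.6, 92.5 and 49.3 CPM in wild type. Its change was −0.04 on the log2 scale with TMM and 0.21 with library totals alone, so it has no settled direction.

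The subunits of succinyl-CoA ligase, the step that makes a nucleoside triphosphate directly, overlapped between these strains. *LSC1* (YOR142W, chromosome XV, 593057 to 594046), for the alpha subunit, had 61.5, 46.5 and 23.3 CPM in *ncs2*∆*elp6*∆ and 30.7, 33.0 and 49.3 CPM in wild type, on 5 to 16 reads a library. *LSC2* (YGR244C, chromosome VII, 978036 to 979319), for the beta subunit, had 88.4, 75.6 and 62.1 CPM in *ncs2*∆*elp6*∆ and 39.4, 52.8 and 91.6 CPM in wild type. The log2 fold changes were 0.26 for *LSC1* and 0.36 for *LSC2*, with adjusted p of 0.688 and 0.462 from edgeR. For both genes the third library of *ncs2*∆*elp6*∆ was the lowest of its strain and the third wild-type library the highest.

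**Figure D4:**
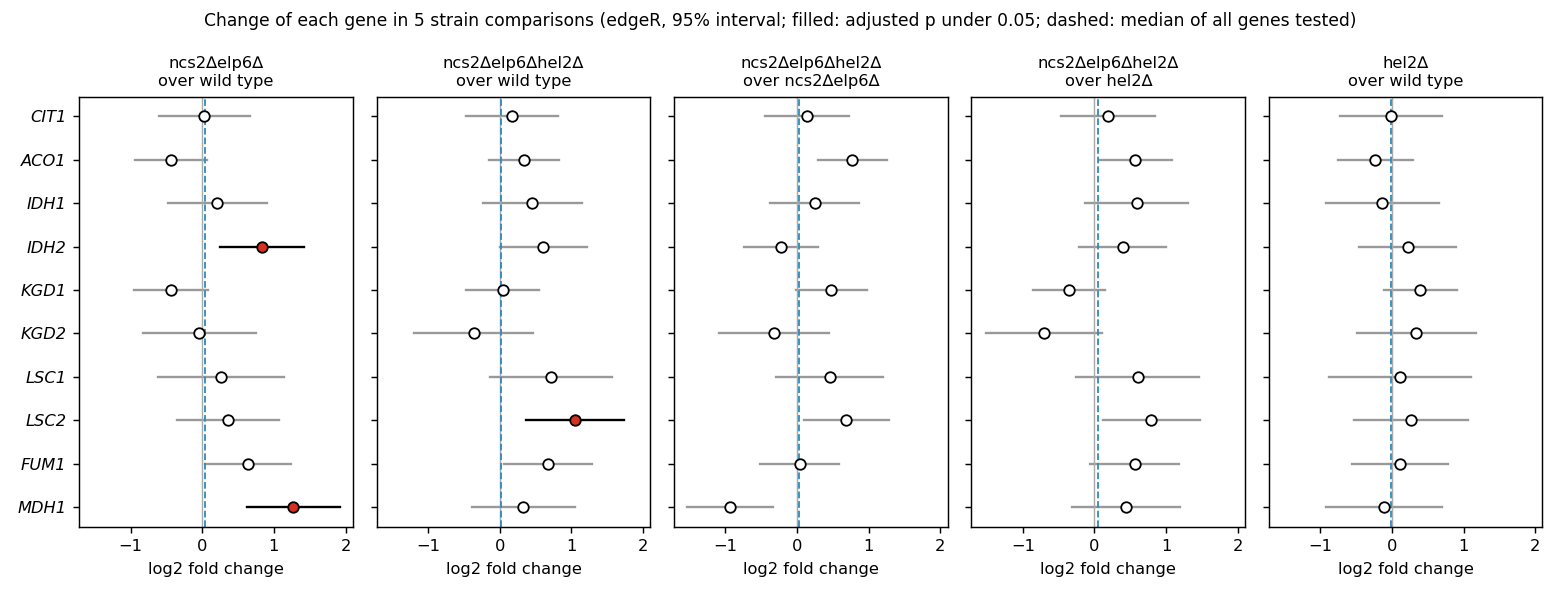
log2 fold change of each citric acid cycle gene with its 95% interval in 5 comparisons, named strain over its reference, from edgeR's fit on 12 libraries, where filled points have an adjusted p under 0.05 and the dashed line is the median of all genes tested. MDH1 (1.27) and IDH2 (0.83) are filled in ncs2∆elp6∆ over wild type, LSC2 (1.05) in ncs2∆elp6∆hel2∆ over wild type, and none in the other comparisons.

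The loss of U34 modification and Hel2 together was examined in *ncs2*∆*elp6*∆*hel2*∆ against wild type. In this comparison 1 of the 10 genes rose (*LSC2*) and 0 fell, beside 11.1% of all genes called, 4.85% as higher and 6.22% as lower. These were 374 genes in all, and the number was 137 without *ncs2*∆*elp6*∆*hel2*∆ replicate 2, 220 without wild-type replicate 2 and 191 without wild-type replicate 3. With library totals alone as the scaling, 63.0% of the calls over all genes were higher, against 43.9% with TMM. Positive values were found for 9 of the 10 genes, *KGD2* being the exception, and for 51.6% of all genes tested. An unadjusted p under 0.05 was found for 2 cycle genes (*LSC2* and *FUM1*), beside 25.6% of all genes. The median of the cycle genes was 0.40, beside 0.02 for all genes.

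*LSC2* had 136, 126 and 107 CPM in *ncs2*∆*elp6*∆*hel2*∆, against 39.4, 52.8 and 91.6 CPM in wild type, with no overlap. *IDH2* shared this pattern, and 0 of the 10 genes were lower without overlap, beside 13.6% of all genes higher and 12.8% lower without overlap. For *LSC2* the log2 fold change was 1.05 (standard error 0.33, adjusted p = 0.0413 from edgeR). The gene kept its call without wild-type replicate 3 or *ncs2*∆*elp6*∆*hel2*∆ replicate 3, and lost it without wild-type replicate 1 (log2 fold change 0.74, adjusted p = 0.214), wild-type replicate 2 (1.00, adjusted p = 0.127), *ncs2*∆*elp6*∆*hel2*∆ replicate 1 (1.01, adjusted p = 0.0806) and *ncs2*∆*elp6*∆*hel2*∆ replicate 2 (1.01, adjusted p = 0.168). DESeq2 gave 1.02 with an adjusted p of 0.170.

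*LSC1*, the other subunit gene of the ligase, had 78.0, 63.2 and 47.0 CPM in *ncs2*∆*elp6*∆*hel2*∆ and 30.7, 33.0 and 49.3 CPM in wild type. The change of *LSC1* was 0.71 on the log2 scale (95% interval −0.14 to 1.57, adjusted p = 0.294 from edgeR). The number of *LSC2* reads per *LSC1* read was 2.01 ± 0.261 in *ncs2*∆*elp6*∆*hel2*∆ and 1.58 ± 0.286 in wild type (SD, n = 3 each), with overlapping libraries. The depth did not show an unequal change of the 2 ligase subunits.

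*IDH2* had 117, 97.0 and 94.0 CPM in *ncs2*∆*elp6*∆*hel2*∆, all above the wild-type libraries (59.5 to 70.4 CPM). It did not pass the test (log2 fold change 0.61, standard error 0.30, adjusted p = 0.195 from edgeR). *FUM1* had 263, 188 and 239 CPM in *ncs2*∆*elp6*∆*hel2*∆, against 140.2, 211 and 63.4 CPM in wild type (log2 fold change 0.67, adjusted p = 0.154). The second wild-type library again lay within the range of the mutant. The other 6 genes had log2 fold changes between −0.36 and 0.46, and none of them passed the test.

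Deletion of *HEL2* in cells without U34 modification was examined in *ncs2*∆*elp6*∆*hel2*∆ against *ncs2*∆*elp6*∆. By edgeR 0 of the 10 genes were called, beside 5.68% of all genes tested, 4.68% as higher and 1.01% as lower. At an unadjusted p under 0.05 there were 3 cycle genes (*ACO1*, *LSC2* and *MDH1*), beside 19% of all genes. DESeq2 also called 0, but gave *KGD2* and *LSC1* no adjusted p. Libraries did not overlap for 4 of the 10 genes, of which *ACO1*, *KGD1* and *LSC2* were higher (14.1% of all genes) and *MDH1* was lower (8.14% of all genes). The median of the 10 genes was 0.19, beside 0.03 for all genes, with positive values for 7 of the 10 and for 53.3% of all genes. The *ncs2*∆*elp6*∆ libraries are shared with the comparison to wild type above, so the opposite signs of *MDH1* in the 2 comparisons are not independent.

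*MDH1* had 146, 109.6 and 51.3 CPM in *ncs2*∆*elp6*∆*hel2*∆, against 161, 221 and 175 CPM in *ncs2*∆*elp6*∆. The *ncs2*∆*elp6*∆*hel2*∆ libraries spread widely, and the lowest rested on 12 reads. Its log2 fold change was −0.94 (standard error 0.29, adjusted p = 0.0576 from edgeR). Without *ncs2*∆*elp6*∆*hel2*∆ replicate 1 it was −1.12 with an adjusted p of 0.0430, without replicate 2 of that strain it was −1.13 with an adjusted p of 0.0388, and without replicate 3 it was −0.65 with an adjusted p of 0.396. *MDH1* thus lay at the threshold, and single libraries of *ncs2*∆*elp6*∆*hel2*∆ decided its side. *MDH1* took 3.41% to 9.09% of the reads on the 10 genes in *ncs2*∆*elp6*∆*hel2*∆, below the 12.2% to 18.8% in *ncs2*∆*elp6*∆.

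The values of *ACO1* ran the opposite way. It had 341, 249 and 410.1 CPM in *ncs2*∆*elp6*∆*hel2*∆, against 219, 157 and 202 CPM in *ncs2*∆*elp6*∆. Its log2 fold change was 0.77 (standard error 0.23, adjusted p = 0.0524 from edgeR). The second *ncs2*∆*elp6*∆*hel2*∆ library was the lowest of its strain, and without it the log2 fold change was 0.99 with an adjusted p of 0.00739. Without the third library of that strain it was 0.54 with an adjusted p of 0.451. As a share of the cycle reads, *ACO1* took 22.9% ± 3.87 in *ncs2*∆*elp6*∆*hel2*∆ and 15.6% ± 1.93 in *ncs2*∆*elp6*∆ (SD, n = 3 each).

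*LSC2* had a log2 fold change of 0.69 between these strains (standard error 0.29, adjusted p = 0.178 from edgeR), with 107 to 136 CPM in *ncs2*∆*elp6*∆*hel2*∆ and 62.1 to 88.4 CPM in *ncs2*∆*elp6*∆. *KGD1* had 312, 200.3 and 320.4 CPM in *ncs2*∆*elp6*∆*hel2*∆, against 196, 183 and 198 CPM in *ncs2*∆*elp6*∆ (log2 fold change 0.48, adjusted p = 0.285). The margin in *KGD1* was narrow, since the second *ncs2*∆*elp6*∆*hel2*∆ library (200.3 CPM) lay just above the highest of *ncs2*∆*elp6*∆ (198 CPM). *KGD2* had 19.5, 52.7 and 59.8 CPM in *ncs2*∆*elp6*∆*hel2*∆, against 73.0, 52.3 and 62.1 CPM in *ncs2*∆*elp6*∆, and its lowest value rested on 2 reads. *FUM1* did not keep a direction, with a log2 fold change of 0.04 under TMM and −0.06 under library totals.

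Loss of U34 modification in cells without Hel2 was examined in *ncs2*∆*elp6*∆*hel2*∆ against *hel2*∆. None of the 10 genes was called by edgeR or by DESeq2 (0 called), though DESeq2 gave *LSC1* no adjusted p. Among all genes tested in edgeR, 14.6% were called, 6.42% as higher and 8.14% as lower. The count over all genes was 492 with all libraries, 122 and 320 without *ncs2*∆*elp6*∆*hel2*∆ replicates 2 and 1, and 167 and 311 without *hel2*∆ replicates 1 and 2. With library totals alone as the scaling, 66.0% of the calls over all genes were higher, against 44.1% with TMM. At that scaling 361 of the 3378 genes tested were called higher, among them 2 cycle genes, *ACO1* and *LSC2*. These 2 were also the cycle genes with an unadjusted p under 0.05 in the TMM-scaled fit, beside 29.1% of all genes. *LSC2* had 136, 126 and 107 CPM in *ncs2*∆*elp6*∆*hel2*∆, against 63.2, 109.7 and 55.3 CPM in *hel2*∆ (log2 fold change 0.79, adjusted p = 0.109). *ACO1* had 341, 249 and 410.1 CPM in *ncs2*∆*elp6*∆*hel2*∆, against 221, 165 and 256 CPM in *hel2*∆ (log2 fold change 0.57, adjusted p = 0.125).

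Both of these genes overlapped between the strains by 1 library. *IDH1*, *LSC1* and *FUM1* did not overlap and were higher, beside 16.5% of all genes, and 0 cycle genes were lower without overlap, beside 15.4%. For *IDH1* the values were 127, 75.9 and 98.2 CPM in *ncs2*∆*elp6*∆*hel2*∆, against 68.5, 32.9 and 70.3 CPM in *hel2*∆ (log2 fold change 0.59, adjusted p = 0.263 from edgeR). The value of 32.9 CPM rested on 3 reads. The median log2 fold change of the 10 genes was 0.50, beside 0.05 for all genes, with positive values for 8 of the 10 and for 53.6% of all genes. *KGD1* (−0.36) and *KGD2* (−0.70), which act in the same complex, had negative values, with adjusted p of 0.341 and 0.238.

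*MDH1* shows how the comparisons differ in their reference. On the log2 scale its change was 0.44 in *ncs2*∆*elp6*∆*hel2*∆ over *hel2*∆ (95% interval −0.31 to 1.19), against 1.27 in *ncs2*∆*elp6*∆ over wild type (0.62 to 1.93). The difference between these changes is the interaction of *HEL2* deletion with the loss of U34 modification, which was −0.83 (standard error 0.49, adjusted p = 0.658 from edgeR). The change of *MDH1* was therefore not shown to differ with the presence of Hel2. *ACO1* had the largest interaction of the cycle genes, at 1.00 (standard error 0.35, unadjusted p = 0.00816, adjusted p = 0.267). Without *ncs2*∆*elp6*∆*hel2*∆ replicate 2 it was 1.22 with an adjusted p of 0.0478. By edgeR 0 of the 10 genes passed this test, beside 0.0296% of all genes, and *ACO1* was the 1 gene with an unadjusted p under 0.05, beside 9.71% of all genes. Positive interactions were found for 6 of the 10 genes and 56.5% of all genes.

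Deletion of *HEL2* alone gave no call among the cycle genes. In *hel2*∆ against wild type, 0 of the 10 genes passed the test in edgeR, 0 had an unadjusted p under 0.05 and DESeq2 called 0. Over all genes tested, edgeR called 0.0888%, 0.0296% as higher and 0.0592% as lower, and 4.17% had an unadjusted p under 0.05. Libraries overlapped for all 10 cycle genes, whereas 4.74% of all genes were higher and 5.45% lower without overlap. The signs were positive for 6 of the 10 genes, beside 48.5% of all genes. *KGD1* had the largest log2 fold change, 0.40 (95% interval −0.12 to 0.91), with 390.0, 274 and 347 CPM in *hel2*∆ and 237, 357 and 190.2 CPM in wild type. *MDH1* had 58.0, 87.7 and 75.4 CPM in *hel2*∆, against 105, 59.5 and 56.4 CPM in wild type (log2 fold change −0.11, 95% interval −0.92 to 0.70). A fall of *MDH1* by up to 0.92, or a rise by up to 0.70, on the log2 scale lies within that interval.

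The cycle holds further enzymes that were not among the 10 genes. Succinate dehydrogenase, which also passes electrons to ubiquinone, is encoded by *SDH1* to *SDH4*, and *LPD1* encodes the dihydrolipoamide dehydrogenase shared by Kgd1 and Kgd2 with pyruvate dehydrogenase. Of these genes and *KGD4*, 4 of 6 passed the filter, and *SDH4* and *KGD4* (listed as *YMR31*) did not. *SDH1* fell in *ncs2*∆*elp6*∆ relative to wild type, with 150, 34.9 and 46.6 CPM, against 110, 264 and 134 CPM in wild type (log2 fold change −1.14, adjusted p = 0.0314 from edgeR). The strains overlapped, and the call was lost in DESeq2 (adjusted p = 0.0847) and with library totals (adjusted p = 0.0833). It was also lost without wild-type replicate 2 (log2 fold change −0.68) and without *ncs2*∆*elp6*∆ replicate 2 (−0.71) or 3 (−0.88), while it reached −2.03 without *ncs2*∆*elp6*∆ replicate 1. *LPD1* averaged 125 ± 12.6 CPM in *ncs2*∆*elp6*∆*hel2*∆, 120 ± 7.64 CPM in *ncs2*∆*elp6*∆, 113 ± 30.8 CPM in *hel2*∆ and 114 ± 45.4 CPM in wild type (SD, n = 3 each), and was called in no comparison, as were *SDH2* and *SDH3*.

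The genes for the other malate dehydrogenases also rose in *ncs2*∆*elp6*∆ relative to wild type. Mdh2 is the cytosolic and Mdh3 the peroxisomal enzyme, and reads were counted only where they mapped uniquely. *MDH2* had 1280.0, 1813 and 1169 CPM in *ncs2*∆*elp6*∆, against 981, 489 and 803 CPM in wild type (log2 fold change 0.90, adjusted p = 0.0161 from edgeR). *MDH3* had 69.2, 87.2 and 85.4 CPM in *ncs2*∆*elp6*∆, against 35.0, 46.2 and 42.3 CPM in wild type (log2 fold change 0.99, adjusted p = 0.0253). All 3 malate dehydrogenase genes thus rose in this comparison without overlap between the strains, as did 21.3% of all genes tested. Of 8 isoenzyme genes listed, 5 were tested and 2 (*MDH2* and *MDH3*) were called higher here, beside 13.4% of all genes tested. Both calls outside the mitochondrion were lost with some libraries left out. *MDH2* lost it without wild-type replicate 2 (0.66, adjusted p = 0.111) or *ncs2*∆*elp6*∆ replicate 2 (0.72, adjusted p = 0.0801). *MDH3* kept it without wild-type replicate 2 or *ncs2*∆*elp6*∆ replicate 1 and lost it in the other 4 fits (0.87 to 1.01, adjusted p up to 0.104), and in DESeq2 (adjusted p = 0.136). *MDH3* was higher without overlap in *hel2*∆ too, at 94.9, 65.8 and 60.3 CPM against 35.0, 46.2 and 42.3 CPM in wild type, but did not pass the test there (log2 fold change 0.88, unadjusted p = 0.0241, adjusted p = 0.980 from edgeR).

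The other malate dehydrogenase genes were also called in *ncs2*∆*elp6*∆*hel2*∆, each in a different comparison. *MDH3* had 107, 92.8 and 98.2 CPM in *ncs2*∆*elp6*∆*hel2*∆, against 35.0, 46.2 and 42.3 CPM in wild type (log2 fold change 1.26, adjusted p = 0.0136 from edgeR), and lost the call without wild-type replicate 1 (adjusted p = 0.0729) or *ncs2*∆*elp6*∆*hel2*∆ replicate 2 (adjusted p = 0.0560), and in DESeq2 (adjusted p = 0.0918). *MDH2* had 1082, 1610 and 807 CPM in *ncs2*∆*elp6*∆*hel2*∆, against 427, 757 and 734 CPM in *hel2*∆ (log2 fold change 0.90, adjusted p = 0.0375). That call was kept in 1 of 6 fits with a library left out, without *ncs2*∆*elp6*∆*hel2*∆ replicate 3. Without *ncs2*∆*elp6*∆*hel2*∆ replicate 2 it was 0.57 (adjusted p = 0.281), without *hel2*∆ replicate 1 it was 0.66 (adjusted p = 0.222), and with a replicate block the adjusted p was 0.0636. The interaction was −0.00 for *MDH2* and −0.61 for *MDH3*, with adjusted p of 0.999 and 0.785. Among other isoenzyme genes, *CIT2* and *IDP1* were called in no comparison.

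Genes that feed pyruvate into the cycle were called singly, with no more than 1 called in any comparison. Of 6 listed, all were tested, and 1 (*PDX1*) fell in *ncs2*∆*elp6*∆ against wild type, beside 16.7% of all genes. *PDX1*, which anchors the dihydrolipoamide dehydrogenase in the pyruvate dehydrogenase complex, had 115, 113 and 148 CPM in *ncs2*∆*elp6*∆, against 180, 297 and 261 CPM in wild type (log2 fold change −0.95, adjusted p = 0.00572 from edgeR). It was called in all 6 fits with a library left out. *PDX1* also fell in *ncs2*∆*elp6*∆*hel2*∆ against *hel2*∆ (log2 fold change −0.83, adjusted p = 0.0284 from edgeR), beside 8.14% of all genes. It had 143 to 214 CPM in *ncs2*∆*elp6*∆*hel2*∆ and 241 to 373 CPM in *hel2*∆. That call was lost without *hel2*∆ replicates 1 or 2 or *ncs2*∆*elp6*∆*hel2*∆ replicate 2 (adjusted p up to 0.188). It was also lost in DESeq2 (adjusted p = 0.0557) and with library totals (adjusted p = 0.0688).

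The pyruvate carboxylases Pyc1 and Pyc2 refill oxaloacetate in the cytosol, and their genes were highest in *ncs2*∆*elp6*∆*hel2*∆. *PYC2* had 361, 388 and 466 CPM there, against 166, 291 and 169 CPM in wild type (log2 fold change 0.98, adjusted p = 0.00859 from edgeR). This was 1 of the 6 listed genes called higher over wild type, beside 4.85% of all genes tested. *PYC2* lost the call without wild-type replicate 1 (adjusted p = 0.0612) or 3 (adjusted p = 0.0652). *PYC1* had 429, 266 and 402 CPM in *ncs2*∆*elp6*∆*hel2*∆, against 208, 186 and 190.3 CPM in *ncs2*∆*elp6*∆ (log2 fold change 0.86, adjusted p = 0.0279). That call was kept in 1 of 6 fits with a library left out, without *ncs2*∆*elp6*∆*hel2*∆ replicate 2 (log2 fold change 1.09, adjusted p = 0.00303), and reached an adjusted p of 0.224 in the others. DESeq2 (adjusted p = 0.0577) and library totals (adjusted p = 0.0571) did not call it. *PYC1* was 1 of the 6 listed genes called higher over *ncs2*∆*elp6*∆, beside 4.68% of all genes tested.

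**Figure D5:**
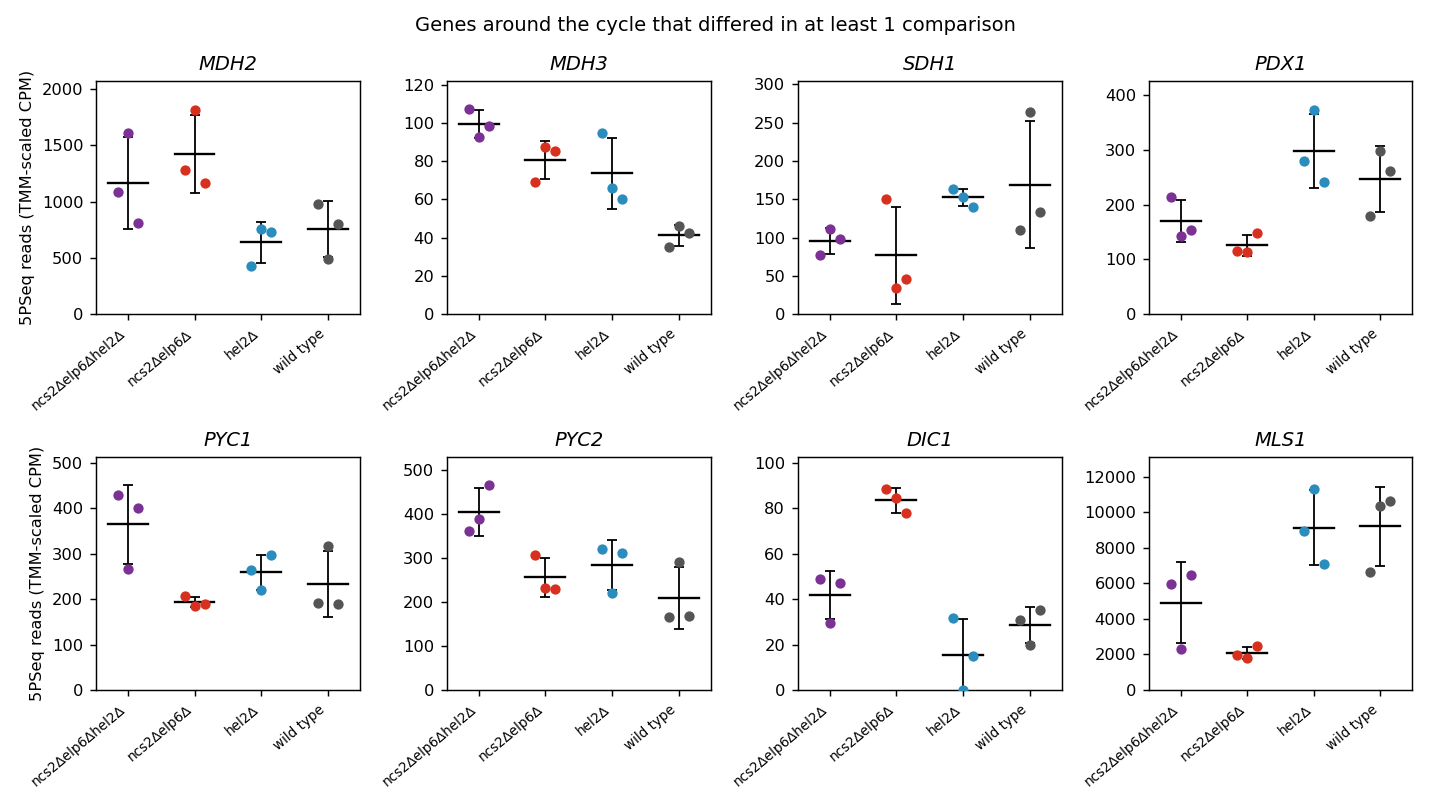
TMM-scaled CPM per library (points), with mean and SD of 3 libraries, of genes around the cycle that passed the test in at least 1 comparison, strains from left to right ncs2∆elp6∆hel2∆, ncs2∆elp6∆, hel2∆ and wild type. MLS1 lies at 1822 to 2455 CPM in ncs2∆elp6∆, against 6632 to 10623 CPM in wild type, and DIC1 at 77.7 to 88.4 CPM in ncs2∆elp6∆, against 19.8 to 35.2 CPM in wild type.

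Malate synthase and the dicarboxylate carrier, which handle cycle intermediates outside the matrix, gave the largest changes around the cycle. *MLS1* encodes malate synthase, which makes malate from glyoxylate and acetyl-CoA. It had 1991, 1822 and 2455 CPM in *ncs2*∆*elp6*∆, against 6632, 10365 and 10623 CPM in wild type (log2 fold change −2.14, adjusted p = 3.36e-05 from edgeR), and was called in all 6 fits with a library left out. Of 4 genes listed for the glyoxylate cycle and gluconeogenesis, 1 (*MLS1*) passed the filter. By locus tag, *MLS1* (YNL117W) lies near *NCS2* (YNL119W), which was deleted in both strains without U34 modification. A local effect of that deletion cannot be told apart from other effects and was not tested. In *ncs2*∆*elp6*∆*hel2*∆ the log2 fold change of *MLS1* was −0.91 over wild type (adjusted p = 0.0789 from edgeR). Over *hel2*∆ it was −0.90 (adjusted p = 0.0681). Neither passed the test, though the libraries did not overlap in either comparison. *MLS1* reads rose in *ncs2*∆*elp6*∆*hel2*∆ relative to *ncs2*∆*elp6*∆ (log2 fold change 1.23, adjusted p = 0.0295). Here the libraries differed, since *ncs2*∆*elp6*∆*hel2*∆ replicate 2 had 2287 CPM beside 5964 and 6463 CPM in the other two. Without that library the log2 fold change was 1.57 (adjusted p = 0.000206), and leaving out any other single library of these strains lost the call (adjusted p up to 0.265). It was also lost with a replicate block (adjusted p = 0.0527) and in the fit of only the strains compared (adjusted p = 0.0559).

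*DIC1* encodes the mitochondrial carrier that exchanges malate and succinate for phosphate. It had 88.4, 84.3 and 77.7 CPM in *ncs2*∆*elp6*∆, against 30.7, 19.8 and 35.2 CPM in wild type, on 20 to 29 reads and 3 to 7 reads a library. Its log2 fold change was 1.52 (standard error 0.42, adjusted p = 0.00717 from edgeR), and *DIC1* was called in all 6 fits with a library left out. Of the 9 carrier genes listed, 4 passed the filter, and 1 was called in this comparison, beside 30% of all genes. Of 8 genes for the Rtg and Hap regulators, 5 passed the filter and 0 were called in any of the 5 comparisons. Of 3 further targets of the Rtg pathway, 2 (*CIT2* and *DLD3*) were tested and 0 were called. Over all genes tested, the share called ran from 0.0888% in *hel2*∆ over wild type to 30% in *ncs2*∆*elp6*∆ over wild type. With so few genes tested, these counts do not show that the regulators or their targets were unchanged.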

How the data were processed

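5PSeq counts of 12 libraries, 3 of each of 4 strains, were analysed. The authors trimmed adapters (cutadapt), removed noncoding reads (STAR 2.5.3a), mapped to sacCer3 open reading frames extended by 21 bases (Bowtie 1.2.3, sense strand, up to 1 mismatch, unique reads) and removed PCR duplicates by 8-base barcodes (UMI-tools). They deposited raw counts per gene, without normalization.

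Counts were filtered (filterByExpr, minimum count 10), scaled by TMM and tested with edgeR 4.0.16 (R 4.3.3, limma 3.58.1) by the quasi-likelihood test, with strain as the only factor and Benjamini-Hochberg adjustment. The standard error is the log2 fold change divided by the square root of F, and intervals are 95% t intervals. A share of 3 counts was 7.22e-04% to 0.00288% of a library. Gene positions are those of RefSeq (S288C R64), matched by locus tag for 10 of 10 cycle genes. None of them overlaps another gene annotated in RefSeq, to which 5772 of the 6302 genes in the count table were matched. Coding sequences and promoters were not analysed here.

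Alternatives were DESeq2 1.42.0, RLE factors, library totals, no filter, a replicate block, only the strains compared, and each library left out in turn. All cycle genes are named, with the deleted genes, related genes with an adjusted p under 0.05, *SDH1* to *SDH4* and *LPD1*. The members and lists were chosen with earlier results of these data known. A gene of the related lists is not reported here.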

Additional observations from a re-analysis of the deposited data

How the results depend on the processing

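Across alternatives, *MDH1* in *ncs2*∆*elp6*∆ over wild type was the cycle gene that kept its call in all of them. DESeq2 called 1 cycle gene higher in *ncs2*∆*elp6*∆ over wild type (2 by edgeR) and 0 in *ncs2*∆*elp6*∆*hel2*∆ over wild type (1 by edgeR). For the interaction it called 46 genes (1 by edgeR), but gave none of the 10 cycle genes an adjusted p. A fit of only the strains compared gave 1 and 0 cycle genes in the first 2 comparisons, and 126 genes in *ncs2*∆*elp6*∆*hel2*∆ over *ncs2*∆*elp6*∆ (192 in the fit on all strains). Without the low-count filter there were 311 genes in that comparison and 26 for the interaction. In *ncs2*∆*elp6*∆*hel2*∆ over *ncs2*∆*elp6*∆, RLE factors called 1 cycle gene lower (*MDH1*, adjusted p = 0.04998 from edgeR), beside 41 of 3378 genes. No filter also called 1 lower (*MDH1*), beside 96 of 6302 genes. Library totals gave a cycle median of 0.48 in *ncs2*∆*elp6*∆ over wild type, beside 0.29 for all genes tested. In *ncs2*∆*elp6*∆*hel2*∆ over *hel2*∆ that scaling gave 2 cycle genes higher, beside 361 of the 3378 genes tested. The causes were not tested.

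Equal replicate numbers carry no stated pairing. Deviations of same-numbered libraries correlated at −0.22 to 0.27, and at 0.08, 0.27 and 0.22 between *ncs2*∆*elp6*∆*hel2*∆ and *ncs2*∆*elp6*∆. With a replicate block the calls over all genes were 961 (*ncs2*∆*elp6*∆ over wild type), 322 (*ncs2*∆*elp6*∆*hel2*∆ over wild type), 181 (over *ncs2*∆*elp6*∆), 419 (over *hel2*∆), 2 (*hel2*∆ over wild type) and 1 (interaction). *LSC2* lost its call (0 cycle genes higher in *ncs2*∆*elp6*∆*hel2*∆ over wild type, adjusted p = 0.0649), and *ACO1* gained one (1 higher over *ncs2*∆*elp6*∆, adjusted p = 0.0493). Around the cycle, *MLS1* (over *ncs2*∆*elp6*∆) and *MDH2* (over *hel2*∆) lost their calls in *ncs2*∆*elp6*∆*hel2*∆ (adjusted p = 0.0527 and 0.0636).

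Directions turned for *KGD2* in *ncs2*∆*elp6*∆ over wild type (0.21), *FUM1* in *ncs2*∆*elp6*∆*hel2*∆ over *ncs2*∆*elp6*∆ (−0.061) and the interaction of *KGD1* (−0.011) with library totals, and for *FUM1* (−0.019) and *CIT1* in *hel2*∆ over wild type (0.012) without the filter. None of these passed the test.

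With each library left out, calls over all genes ran from 775 to 960 (*ncs2*∆*elp6*∆ over wild type), 137 to 504 (*ncs2*∆*elp6*∆*hel2*∆ over wild type), 35 to 389 (over *ncs2*∆*elp6*∆), 122 to 649 (over *hel2*∆), 1 to 2 (*hel2*∆ over wild type) and 1 to 111 (interaction). Cycle genes called higher ran from 1 to 2, 0 to 1, 0 to 1, 0 to 0, 0 to 0 and 0 to 1 in the same order, and 0 to 1 were lower over *ncs2*∆*elp6*∆. The cycle median in *ncs2*∆*elp6*∆*hel2*∆ over wild type ran from 0.25 to 0.61. Signs changed in *ncs2*∆*elp6*∆ over wild type for *CIT1* (−0.12 to 0.14), *KGD2* (−0.20 to 0.27) and *LSC1* (−0.024 to 0.55). They changed for *KGD1* in *ncs2*∆*elp6*∆*hel2*∆ over wild type (−0.13 to 0.31) and *FUM1* over *ncs2*∆*elp6*∆ (−0.12 to 0.26), and for the interactions of *KGD1* (−0.18 to 0.32), *FUM1* (−0.44 to 0.24) and *CIT1* (−0.069 to 0.33). In *hel2*∆ over wild type they changed for *CIT1* (−0.19 to 0.17), *IDH1* (−0.29 to 0.19), *KGD2* (−0.19 to 0.68), *LSC1* (−0.047 to 0.32), *LSC2* (−0.033 to 0.63), *FUM1* (−0.19 to 0.48) and *MDH1* (−0.26 to 0.30). None of these values passed the test.

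Depth limits the cycle genes. Most had under 50 reads in a library, and the 95% intervals of *LSC1* and *IDH1* in *ncs2*∆*elp6*∆ over wild type include log2 fold changes of up to 1.14 and 0.90.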
